A study of Homo sapiens with 4 samples.

Results

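The response of SK-MEL-28 cells to LINC00622 knockdown is described here across genes and pathways. SK-MEL-28 is an established human melanoma line, and the long non-coding RNA LINC00622 was depleted in it by RNA interference. Poly(A)-enriched RNA was sequenced from 1 library of cells transfected with a siRNA against LINC00622 (siLINC00622) and 1 library of cells transfected with a control siRNA (siNC). A375, a further established melanoma line, was treated in the same way and gave 1 library per condition. Each transfection ran for 6 h in medium without serum, followed by 24 h in medium with 10% serum. The samples are labelled as melanoma tissue beside their cell line names, and no genotype is given for either line. The members are the genes with 10 or more counts in 1 of the 2 SK-MEL-28 libraries, which were 15442 of the 17755 genes listed. With 1 library per condition, no comparison has a replicate check, no test was made, and cell loss or growth differences between the dishes cannot be told apart from changes per cell.

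A siRNA loads its guide strand into an Argonaute protein, which cuts a fully matched RNA. Bases 2 to 8 of the guide, the seed, can also pair with 3′ UTRs of other mRNAs and lower them. Melanoma cells are known to move between a differentiated state, driven by MITF and SOX10 with high pigment genes, and a dedifferentiated state marked by NGFR, AXL and matrix genes. Outputs of the MAPK, YAP, WNT and cAMP pathways differ between these states, so the members below are ordered along them.

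The study lists 2 siRNAs against LINC00622, and does not name which was used for the sequenced cells. Their target sequences are shown because the seed recurs in the falling genes below. The 7 bases that pair with the seed are in capitals.
siLINC00622_1: ccctaaagaaaGTGAGAAa
siLINC00622_2: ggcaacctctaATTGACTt
The first lies at chr1:119598699-119598717 and the second at chr1:119598439-119598457, on the minus strand of GRCh38, in the single annotated transcript of LINC00622. LINC00622 itself had 309 counts with siNC and 135 with siLINC00622. Its FPKM, a level per transcript length, was 5.94 and 2.52. The log2 ratio of siLINC00622 over siNC was -1.21, with a 95% counting interval from -1.53 to -0.93. The targeted RNA was therefore lower in the library labelled as its knockdown.

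The libraries held 33110470 (siNC) and 34164676 (siLINC00622) counts. All 8 melanocyte lineage markers listed for the check of the cell type were used. PMEL, the melanosome matrix protein, stood at 940.3 and 1134 FPKM, and MITF at 80.1 and 74.9. SOX10 had 20638 and 20943 counts. TYRP1 was the lowest of the 8, at 0.744 and 0.956 FPKM. Of the lists for other cell types, the keratinocyte gene KRT14 had 6 and 2 counts, the immune gene LYZ 9 and 13, and the endothelial gene KDR 8 and 4. Of the 4 epithelial genes, EPCAM and KRT8 were under 1 FPKM in both libraries, CDH1 had 1.24 and 0.809 FPKM, and KRT18 had 4.72 and 3.60. KRT10 had 1361 and 1432 counts, and the matrix gene LUM, from the fibroblast list, 803 and 892. None of these moved past the rule given next except CDH1, which is described with the cadherins, and S100B.

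A gene was called higher or lower where its ratio was over 1.5-fold and its counting interval excluded no change. By this rule 458 genes were higher, 2.97% of the members, and 768 were lower, 4.97%. These 2 shares are the background against which each list below is read. They varied with the level. Of 2284 genes with 50 to under 200 counts in the larger library, 5.6% were higher and 10.1% lower. Of genes with 5000 or more counts, 2.1% were higher and 2.4% lower. The lists were not matched for level, so shares of lists with many scarce or many abundant genes are not directly comparable with the background. The median log2 ratio over all members was -0.00, and the middle 95% of members lay between -0.87 and 0.76. The spread narrowed with the level. Among 1600 genes with 5000 or more counts in 1 library the middle 95% lay between -0.57 and 0.56, and among 2699 genes under 50 counts between -1.20 and 1.10. Changes over 2-fold were made by 140 higher and 228 lower genes, and changes over 4-fold by 10 and 16. Of 11993 protein-coding genes, 627 (5.23%) were lower and 279 (2.33%) higher, close to the shares of all members. Pseudogenes were lower in 61 of 1140 (5.35%) and higher in 41 (3.60%). Non-coding RNAs other than pseudogenes leaned the other way, with 115 of 2017 (5.70%) higher and 71 (3.52%) lower.

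**Figure D1:**
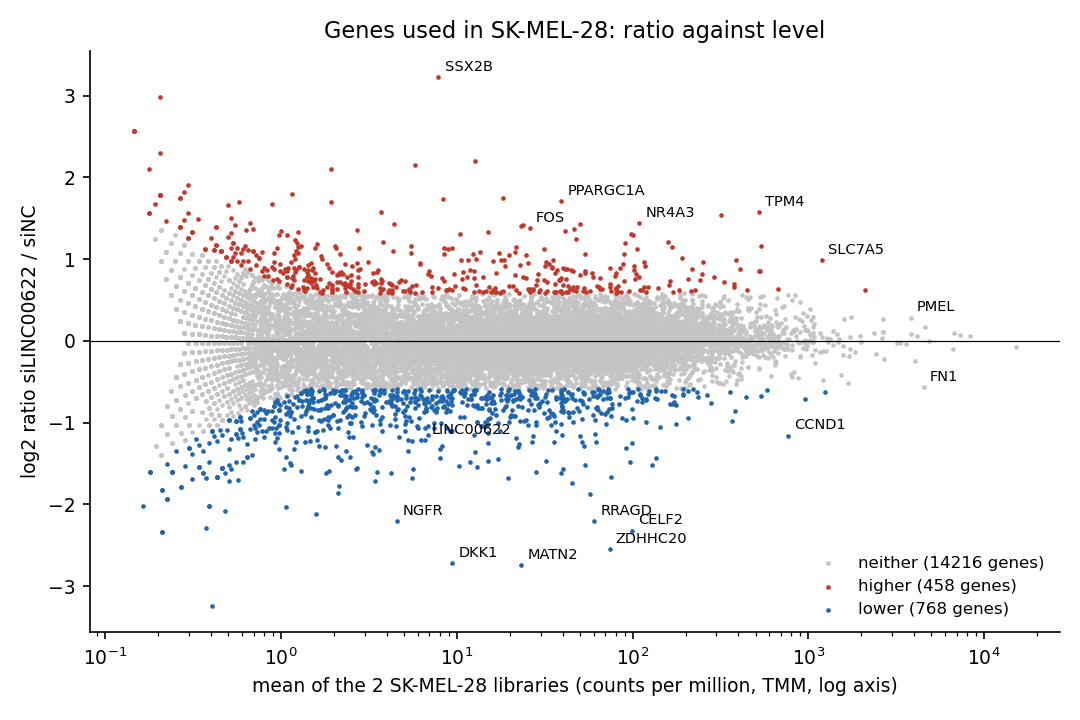
Each point is 1 of the 15442 genes used, with the mean level of the 2 libraries in CPM on a log axis and the log2 ratio of siLINC00622 over siNC on the vertical axis. Red points are the 458 higher genes and blue points the 768 lower genes, and the grey points widen to the left, where counts are low.

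Among protein-coding genes with 50 or more counts, the strongest rise was that of SSX2B, a cancer-testis antigen gene on the X chromosome. Its counts went from 49 to 485, a log2 ratio of 3.22 (2.85 to 3.73). Its near-identical copy SSX2 moved the other way, from 214 to 70 counts. Summed over both, the counts were 263 and 555, and the log2 ratio was 1.04 (0.83 to 1.26). Reads of the 2 copies can be split between them in the counting, so the sum is the value to read. U2AF1, a splicing factor that reads the 3′ splice site, had 150 and 709 counts, and with its copy U2AF1L5 the sum was 218 and 797 counts, a log2 ratio of 1.83 (1.62 to 2.06). In A375 the sum over U2AF1 and U2AF1L5 was 629 and 462 counts (-0.65), whereas U2AF1 alone had 158 and 336 (0.87). The A375 sum over SSX2 and SSX2B was 316 and 263 counts (-0.47).

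Next among the leading rises are described PPARGC1A, TRPM1, NR4A3 and FOS. PPARGC1A, the coactivator of mitochondrial biogenesis and a target of MITF and CREB, rose from 609 to 2040 counts, a log2 ratio of 1.71 (1.58 to 1.85). TRPM1, a melanocyte cation channel gene whose intron holds the miRNA gene MIR211, rose from 5411 to 16019 counts, or from 21.97 to 63.04 FPKM, a log2 ratio of 1.53 (1.49 to 1.58). NR4A3, an orphan nuclear receptor induced by cAMP, rose from 1956 to 5413 counts (1.44, interval 1.36 to 1.51). FOS, the immediate-early partner of JUN in AP-1, rose from 479 to 1280 counts (1.38, interval 1.23 to 1.54). All of these lay well beyond the middle 95% of genes at their level.

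Other leading rises fell in no single group. TPM4, a tropomyosin that coats actin filaments, rose from 8761 to 26671 counts, with the narrowest interval of the 15 (1.54 to 1.61). CASQ1, a calcium store protein of muscle, had 23 and 108 counts and the widest interval after its log2 ratio of 2.11 (1.54 to 2.92). HABP4 (907 and 2494 counts) and ISM1 (422 and 1150), a secreted protein gene, had log2 ratios of 1.43 and 1.41. NKAIN4, a partner of the sodium pump, went from 431 to 1182 counts. PRMT6, an arginine methyltransferase of histones, went from 866 to 2292, and TDG, the thymine DNA glycosylase, from 774 to 2004. MESD, a chaperone of the WNT coreceptors LRP5 and LRP6, and the receptor GPR157 closed the 15 with log2 ratios of 1.30 and 1.29. HMOX1, the haem oxygenase of the oxidative stress response, was picked after its values were seen and rose from 11088 to 25430 counts, a log2 ratio of 1.17.

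Under the same limit of 50 counts, the strongest fall was that of MATN2, a matrix adaptor protein gene, from 1351 to 205 counts, a log2 ratio of -2.74 (-2.97 to -2.54). DKK1, a secreted inhibitor of WNT signalling, fell from 544 to 83 counts, or from 7.40 to 1.09 FPKM, a log2 ratio of -2.71 (-3.09 to -2.41). ZDHHC20, a palmitoyltransferase, fell from 4205 to 735 counts (-2.54, interval -2.66 to -2.43). CELF2, an RNA-binding regulator of splicing, fell from 5507 to 1125 counts (-2.32, interval -2.42 to -2.23). All 4 fell by over 4-fold.

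RRAGD, the Rag GTPase that the study followed, fell from 3313 to 731 counts (-2.21, interval -2.33 to -2.09). It stood beside NGFR, the neural crest receptor, which had 251 and 54 counts (-2.21, interval -2.70 to -1.82). GXYLT1, a xylosyltransferase that extends sugars on NOTCH, fell from 2977 to 831 counts (-1.87), and KRR1, a factor of small ribosomal subunit assembly, from 2306 to 703 (-1.74). CYRIB, an inhibitor of RAC1-driven actin branching, fell from 3792 to 1222 counts (-1.66). ANKRD1 (87 and 19 counts) and CCN1 (998 and 318), both targets of YAP, had log2 ratios of -2.11 and -1.68. The last of the 15 were TRUB1, a pseudouridine synthase (-1.62), RNF138, a ubiquitin ligase of DNA repair (-1.60), FBXO28, a subunit of a ubiquitin ligase (-1.56), and DSG2, a desmosomal cadherin (-1.52).

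**Figure D2:**
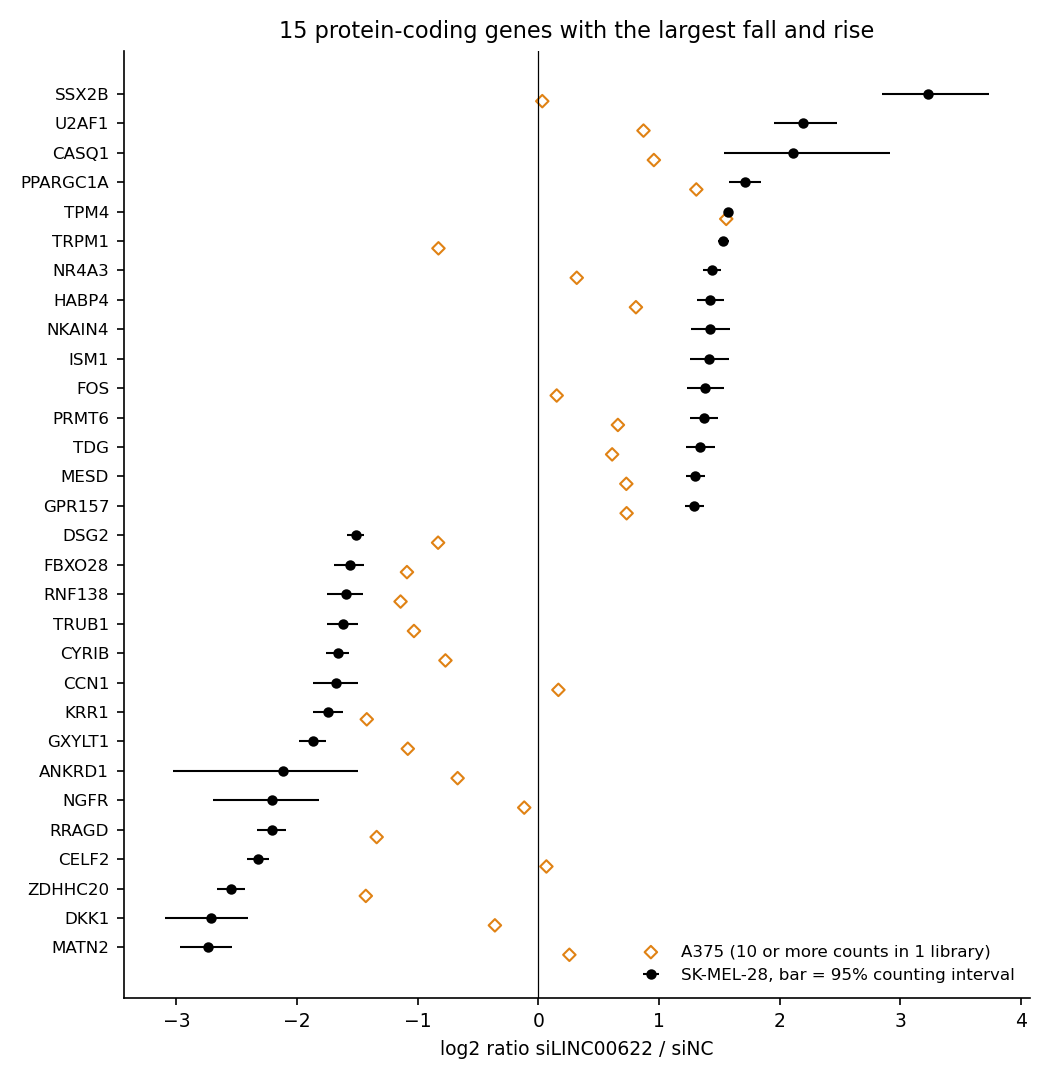
Log2 ratios of the 15 protein-coding genes with the largest rise and the 15 with the largest fall in SK-MEL-28, ranked by the end of the interval nearer to 0 among genes with 50 or more counts. Black points and bars are SK-MEL-28 with its 95% counting interval, and open diamonds are A375 where the gene had 10 or more counts. A375 passed the rule in the same direction for 8 of the 15 rises and 10 of the 15 falls, U2AF1 among the rises when counted without its copy.

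Described over 38 gene lists, the medians of 33 lists lay between -0.25 and 0.25, and those of 5 lists were below -0.25. These were the dedifferentiated state, YAP and TEAD targets, mitosis, DNA replication and integrins. The lists overlap (JUN and CCND1 each stand in more than 1), so they are not separate counts. They were written with earlier results of these data known, so their shares are descriptions and no independent support. Of the members named below, LOXL2, TNC, KLF10, DLC1, AMOTL2, FZD4, RYK, DKK3, ITGA6, ITGA1, SERPINE2, PLAT, CDH1, NHS, H3C2 and MAGEA2 were picked after their values were seen. In 5 lists with 176 genes in all, 0 genes were called in either direction.

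**Figure D3:**
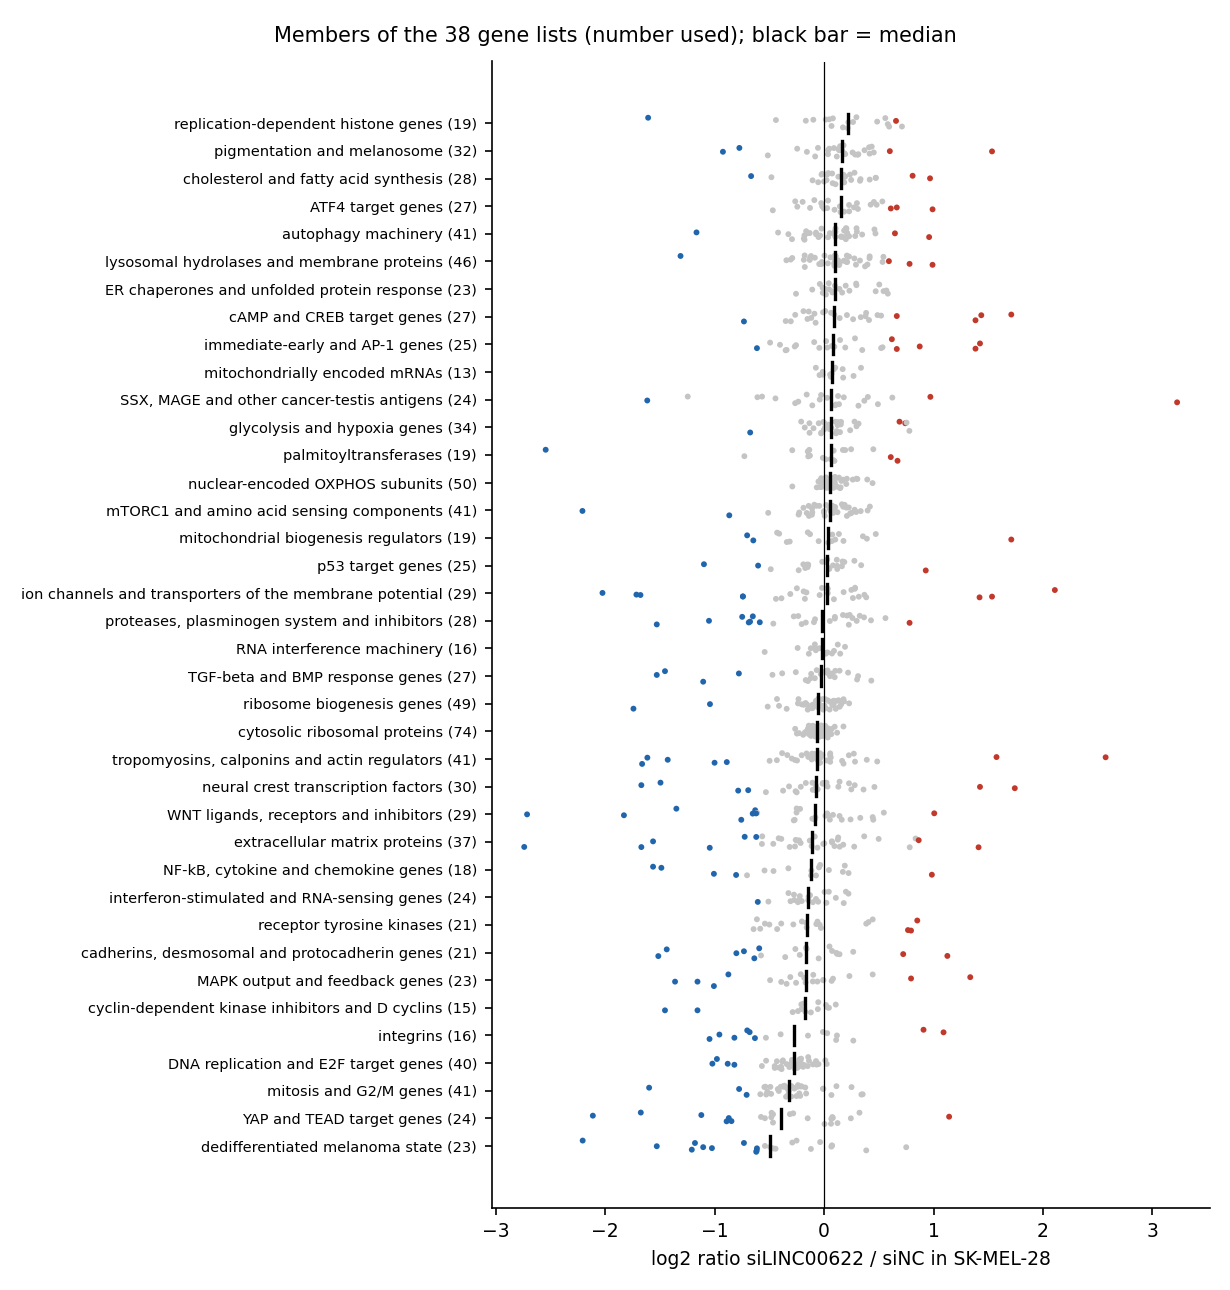
Log2 ratio of every used member of the 38 lists in SK-MEL-28, ordered by the list median (black bar), with the number used in brackets. Red and blue points passed the rule upwards and downwards. The dedifferentiated state list has the lowest median, -0.49, with 10 blue points and 0 red.

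Genes of the dedifferentiated melanoma state were lower in 10 of 23 used and higher in 0, against the 4.97% and 2.97% of all members. The list median was -0.49. NGFR fell most. TGFB1 fell from 419 to 198 (-1.10) and the collagen crosslinker LOXL2 from 651 to 326 (-1.02). NRG1 and FGF2, both growth factor genes, had 75 and 32 counts (-1.21) and 120 and 53 counts (-1.18). The most abundant member, the matrix protein tenascin-C (TNC), fell from 157 to 101 FPKM (-0.62, interval -0.64 to -0.60). AXL, the receptor that names this state, had 139 and 97 counts (-0.54, interval -0.94 to -0.17), which is under the 1.5-fold limit. EGFR had 49 and 66 counts (0.38, interval -0.16 to 0.96), and its interval included 0. In A375, where NGFR had 5250 counts in the siNC library and AXL 16064, the same list had a median of 0.08, with 1 of 25 members higher and 0 lower.

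The pigmentation list, 32 genes, had a median of 0.16, with 2 genes higher and 2 lower. TRPM1 rose, and so did GPR143, the melanosome receptor of ocular albinism, from 57.6 to 86.5 FPKM (0.60, interval 0.55 to 0.65). The enzymes and matrix proteins of the melanosome moved by less than 1.5-fold. PMEL had a log2 ratio of 0.28, TYR, the rate-limiting enzyme of melanin synthesis, 0.19, MLANA 0.19 and DCT -0.16. MITF had 18955 and 18299 counts (-0.08, interval -0.11 to -0.05). CAPN3, a calpain gene, fell from 455 to 244 counts (-0.92), and DTNBP1, a subunit of a melanosome sorting complex, from 1240 to 740 (-0.77). S100B fell from 146.7 to 96.8 FPKM (-0.59).

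Among 30 neural crest transcription factors, 2 were higher and 4 lower. GLI2, an effector of Hedgehog signalling, fell from 56 to 19 (-1.49, interval -2.42 to -0.82), FOXD3 from 482 to 285 (-0.79) and ETS1 from 5545 to 3503 (-0.69). SOX10, PAX3 and TFAP2A had log2 ratios of -0.01, -0.26 and -0.17. The factors that set pigment cell identity were thus within 1.5-fold while ETS1 and FOXD3 were not.

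Genes induced by cAMP and CREB were higher in 4 of 27 and lower in 1, with a median of 0.09. Beside PPARGC1A, NR4A3 and FOS, the stress factor ATF3 rose from 116 to 189 counts (0.66, interval 0.33 to 1.02). The clock gene PER2 fell from 385 to 236 (-0.73). NR4A1 and NR4A2, paralogs of NR4A3, had log2 ratios of 0.26 and 0.33. Of 25 immediate-early and AP-1 genes, 5 were higher and 1 lower. MAFF (966 and 1810 counts, 0.87) and KLF10 (783 and 1230 counts, 0.62) rose, as did ATF3. JUN, in contrast to its partner FOS, fell from 892 to 595 counts (-0.61, interval -0.77 to -0.46). EGR1 had a log2 ratio of -0.26 and FOSB 0.52, neither past the rule.

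MAPK output genes, 23 in number, held 2 higher and 4 lower genes with a median of -0.17. CCND1, a D cyclin that drives entry into S phase, fell from 222 to 98.7 FPKM (-1.16, interval -1.18 to -1.13). DUSP6, a phosphatase of ERK, fell from 1857 to 1034 counts (-0.87), LIF from 362 to 183 (-1.01), and IL17RD, a feedback inhibitor of FGF signalling, from 159 to 62 (-1.36). The other feedback genes did not follow, since DUSP4 had a log2 ratio of 0.23, SPRY2 -0.18, SPRY4 -0.01 and ETV5 -0.21. MAPK4 (282 and 730 counts, 1.33) and the ephrin receptor EPHA4 (1945 and 3448 counts, 0.79) rose. Receptor tyrosine kinases were higher in 3 of 21 and lower in 0. Beside EPHA4 these were MERTK, from 8.41 to 15.03 FPKM (0.85), and FGFR1, from 307 to 535 counts (0.77). ERBB3 had a log2 ratio of -0.20.

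YAP and TEAD target genes were lower in 6 of 24 and higher in 1, with a median of -0.39. After ANKRD1 and CCN1 came CRIM1 (686 and 321 counts, -1.12), the phosphatase PTPN14 (3021 and 1664, -0.89) and the scaffold AMOTL2 (1719 and 976, -0.85), of which the last 2 restrain YAP. DLC1, a GTPase-activating protein, fell from 3060 to 1709 counts (-0.87). CCN2 had 1019 and 746 counts (-0.48, interval -0.62 to -0.34). GADD45B, a stress-induced regulator of p38 signalling, was the exception and rose from 194 to 440 counts (1.14).

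The WNT list was lower in 7 of 29 and higher in 1, with a median of -0.09. The falls were of secreted inhibitors and receptors. Beside DKK1, the inhibitor SFRP1 fell from 1240 to 749 counts (-0.76). Of the Frizzled receptors, FZD2 fell from 255 to 101 counts (-1.35, interval -1.71 to -1.03), FZD7 from 1301 to 845 (-0.65) and FZD4 from 422 to 278 (-0.63). The coreceptor RYK fell from 2972 to 1973 (-0.62), and DKK3 had 12 and 2 counts. The ligand WNT9A rose from 37 to 78 counts (1.01, interval 0.46 to 1.65). AXIN2, the common readout of WNT signalling through beta-catenin, had 93 and 120 counts (0.33, interval -0.07 to 0.74), not distinguishable from no change at this depth.

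Of 27 TGF-beta and BMP response genes, 0 were higher and 4 were lower, among them TGFB1, the cell cycle inhibitor CDKN1C (108 and 39 counts, -1.45) and BMP2 (82 and 48 counts, -0.78). The direct SMAD targets SMAD7, ID1 and ID3 had log2 ratios of 0.10, 0.14 and -0.07. Of 18 NF-kB, cytokine and chemokine genes, 4 were lower and 1 higher. The chemokines CXCL8 (585 and 212 counts, -1.49) and CXCL1 (134 and 45 counts, -1.56) fell, with TNFRSF12A (1669 and 976, -0.80). TNFAIP3, the feedback inhibitor of NF-kB, rose from 415 to 841 counts (0.98, interval 0.82 to 1.16).

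Adhesion genes fell in larger shares than the background. Integrins were lower in 6 of 16 and higher in 2, with a median of -0.27. ITGB8, which activates latent TGF-beta, fell from 12.8 to 6.15 FPKM (-1.05), ITGA4 from 661 to 347 counts (-0.96) and ITGA2 from 2050 to 1186 (-0.82). ITGAV and ITGA6 fell by 0.70 and 0.68 on the log2 scale, and ITGA1 by 0.63. ITGA9 (458 and 999 counts, 1.09) and ITGA5 (801 and 1538 counts, 0.91), both alpha chains, rose. The beta chains ITGB1 and ITGB3 had log2 ratios of 0.03 and 0.12. The change was thus among alpha chains and ITGB8.

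Cadherins, desmosomal genes and protocadherins were lower in 6 of 21 and higher in 2. DSG2 fell from 20.3 to 7.03 FPKM. PCDH1 fell from 393 to 147 counts (-1.44), N-cadherin (CDH2) from 1663 to 1022 (-0.73), PCDH7 from 231 to 151 (-0.64) and E-cadherin (CDH1) from 249 to 168 (-0.59). PCDH10 rose from 52 to 89 counts (0.72, interval 0.23 to 1.27), and the largest log2 ratio in the list was 1.13. Neither CDH2 nor CDH1 rose, so the values show no exchange of one for the other.

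Matrix proteins were lower in 6 of 37 and higher in 2, with a median of -0.11. Among those with 50 or more counts, MATN2 led, followed by LRRC15 (53 and 17 counts, -1.56), the proteoglycan VCAN (204 and 100, -1.04), COL16A1 (189 and 116, -0.73) and TNC. Fibronectin (FN1) had 315 and 211 FPKM and a log2 ratio of -0.57 (-0.58 to -0.55), just under the limit of 0.585. Proteases and their inhibitors were lower in 7 of 28 and higher in 1, with a median of -0.02 and 14 members on each side of 0. SERPINE2 fell from 74.3 to 46.1 FPKM (-0.68), the plasminogen activator PLAT from 30.7 to 19.4 (-0.65) and ADAM9 from 12.3 to 7.22 (-0.75). SERPINB2 had 65 and 31 counts (-1.05, interval -1.77 to -0.46). The lysosomal protease CTSL rose from 35.3 to 60.0 FPKM (0.78).

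Actin regulators were mixed, with 5 of 41 lower and 2 higher and a median of -0.06. TPM4 rose while TPM1, another tropomyosin, had 554 and 448 counts (-0.34). CNN3, a calponin that binds actin, fell from 71.7 to 26.3 FPKM (-1.43, interval -1.50 to -1.36), and the coronin CORO2A from 91 to 29 counts (-1.61). NHS was at 0 counts in the siNC library and 10 in the other, which is at least 3.26-fold higher against a floor of 3 counts. Channels and transporters of the membrane potential were lower in 5 of 29 and higher in 3. The inward rectifier KCNJ10 fell from 283 to 89 counts (-1.68), and KCNN4 (129 and 78 counts) and KCNK5 (165 and 100 counts) both had log2 ratios of -0.74. The inward rectifier KCNJ2 had 27 and 7 counts (-1.71, interval -3.42 to -0.74). TRPM1, NKAIN4 and CASQ1 were the 3 that rose.

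Few proliferation genes were called, so their shares rest on few genes and are not read as different from the 4.97% of all members. The shares called lower were 10% for replication, 7.32% for mitosis and, with 2 of 15 genes, 13.3% for CDK inhibitors and D cyclins. Of 40 DNA replication and E2F targets, 4 were lower and 0 higher, and the median was -0.28. CCNE2 (675 and 339 counts, -1.02), E2F2 (1013 and 524, -0.98), UHRF1, which guides maintenance of DNA methylation (2838 and 1574, -0.88), and E2F8 (582 and 336, -0.82) passed the rule. MCM2, E2F1 and PCNA had log2 ratios of -0.30, -0.23 and -0.21. Of 41 mitosis genes, 3 were lower and 0 higher, with a median of -0.32. These were CCNA1, a germ line cyclin (176 and 58 counts, -1.60), MAD2L1 of the spindle checkpoint (3529 and 2104, -0.78) and PRC1. PRC1 had 62 and 38 counts (-0.71, interval -1.36 to -0.13). MKI67 had 45.4 and 35.8 FPKM (-0.33), CCNB1 136 and 96.0 (-0.49) and CCNA2 36.4 and 37.8 (0.07). Log2 ratios were below 0 for 38 of the 40 replication genes and 36 of the 41 mitosis genes. In A375 the medians of the same lists were -0.40 and -0.35. Of 15 CDK inhibitors and D cyclins, CDKN1C and CCND1 were lower and 0 were higher.

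Metabolic genes gave few calls. Of 50 nuclear-encoded subunits of the respiratory chain 0 were called, and the range was -0.29 to 0.44 around a median of 0.06. The 13 mRNAs of the mitochondrial genome were also within the limit, from -0.08 for MT-CO1 to 0.34. Among 19 regulators of mitochondrial biogenesis, only PPARGC1A rose, while TWNK, the mitochondrial helicase (1837 and 1198 counts, -0.65), and TFB1M (390 and 244, -0.70) fell. ESRRA had a log2 ratio of 0.39 and TFAM, which packs mitochondrial DNA, -0.41. The rise of the coactivator therefore stood beside subunits that did not pass the rule in either direction.

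Cholesterol and fatty acid synthesis genes, 28 in number, had a median of 0.15 with 2 higher and 1 lower. INSIG1, which holds SREBP in the ER, rose from 521 to 934 counts (0.81). The sterol carrier STARD4 fell from 719 to 462 (-0.67). HMGCS1, an enzyme early in the pathway, had a log2 ratio of 0.47. Among 34 glycolysis and hypoxia genes, the glucose transporter SLC2A3 (964 and 1648 counts, 0.74) and PFKFB4 (4107 and 6766, 0.69) rose, and BNIP3L, a mitophagy receptor, fell from 3452 to 2208 (-0.68).

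Lysosomal genes were higher in 3 of 46 and lower in 1, and autophagy genes higher in 2 of 41 and lower in 1. ATP6V0D2, a subunit of the proton pump (397 and 808 counts, 0.99), CTSL and the sulphatase SGSH (942 and 1452, 0.59) rose. GM2A, the activator of ganglioside breakdown, fell from 31.2 to 12.5 FPKM (-1.31). TFEB, which drives lysosomal genes, had 70 and 141 counts (0.96, interval 0.56 to 1.41), and GABARAPL1 rose from 1374 to 2200 (0.65). PIK3R4, a subunit of the VPS34 lipid kinase, fell from 2327 to 1059 counts (-1.17). Of 41 mTORC1 and amino acid sensing components, RRAGD and SESN3, a sestrin (1975 and 1106 counts, -0.87), were lower and 0 were higher.

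Of the stress lists, the 27 ATF4 targets held 3 higher genes (11.1%, against 2.97% of all members) and 0 lower, with a median of 0.15. SLC7A5, the large neutral amino acid transporter, rose from 168 to 331 FPKM (0.99, interval 0.97 to 1.01), with CTH of cysteine synthesis (483 and 754 counts, 0.61) and ATF3. ATF4, DDIT3 and TRIB3 had log2 ratios of 0.27, 0.31 and 0.43. Of 23 ER chaperone genes 0 were called, although XBP1 had 0.47 and HSPA5 0.29. Among 25 p53 targets, GDF15 rose from 524 to 1021 counts (0.93), and MDM2, the ligase of p53 (1672 and 797 counts, -1.10), and DDB2 (389 and 261 counts, -0.60) fell. CDKN1A, the p53-induced cell cycle inhibitor, had 241 and 254 counts (0.04, interval -0.22 to 0.30). Of 24 interferon-stimulated and RNA-sensing genes, IRF1 was lower (147 and 98 counts, -0.61) and 0 were higher, and IFIT1 and ISG15 had log2 ratios of -0.51 and -0.05.

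The medians of both translation lists stayed near 0. All 74 cytosolic ribosomal protein genes lay between -0.26 and 0.18 with a median of -0.06. Of 49 ribosome biogenesis genes, KRR1 and LTV1, another small subunit factor (619 and 306 counts, -1.04), were lower and 0 were higher. Of 16 genes of the RNA interference machinery 0 were called, with AGO2 at -0.54, AGO1 at -0.08 and DICER1 at 0.12. Among 19 palmitoyltransferases, ZDHHC16 (1096 and 1784 counts, 0.67) and ZDHHC18 (1022 and 1594, 0.61) rose while ZDHHC20 fell. Of 19 histone genes of the replication-dependent class, whose mRNAs mostly lack a poly(A) tail, H2BC5 rose (39 and 64 counts, 0.66) and H3C2 had 13 and 3 counts. Of 24 cancer-testis genes, MAGEA2 was higher (20 and 42 counts) beside SSX2B. SSX2 alone counted as lower, and its sum with SSX2B was higher, as given above.

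Of the non-coding features, the antisense gene ENSG00000259720 rose from 279 to 962 counts (1.75, interval 1.56 to 1.95). All 40290 bases of it lie within TRPM1, on the opposite strand. ENSG00000250137 went from 0 to 14 counts, at least 4.57-fold higher against the floor of 3 counts, and 13612 bases of it overlap PPARGC1A on the opposite strand. The library kit named in the methods does not mark strand. Reads from bases that ENSG00000259720 shares with TRPM1 therefore cannot be told apart by strand, nor can those that ENSG00000250137 shares with PPARGC1A. ENSG00000250137 also shares 10318 bases with the non-coding gene ERVH-1. SLCO4A1-AS1 (61 and 190 counts, 1.58) overlaps SLCO4A1 in the same way. The long intergenic RNA ENSG00000231811 rose from 127 to 436 counts (1.73, interval 1.46 to 2.05) and lies within a longer non-coding RNA of its own strand.

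Several pseudogenes passed the rule while their parents did not. MEMO1P1 rose from 70 to 324 counts (2.15), and MTX1P1 fell from 649 to 226 (-1.54). The parents MEMO1 and MTX1 had log2 ratios of 0.38 and -0.07. Summed with the parent, MEMO1 gave 170 and 458 counts (1.39, interval 1.14 to 1.66), and MTX1 gave 1530 and 1083 (-0.53, interval -0.64 to -0.42). SNRPGP10 fell from 283 to 96 counts, whereas all 4 listed SNRPG genes summed to 2409 and 2267 (-0.12). IKBKGP1 (58 and 13 counts) and PPATP1 (27 and 5 counts) fell too, with parental sums at 0.20 and -0.20. For these loci the sum moved by less than the pseudogene. CHCHD3, a protein of the mitochondrial inner membrane, and its listed pseudogene summed to 4748 and 1730 counts (-1.49), nearly all from CHCHD3 itself.

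Calls by seed matches were described over 11951 members with an annotated 3′ UTR in GENCODE 29. No other words were searched in the 3′ UTRs, so whether the shares are particular to these seeds was not tested. For siLINC00622_1, 10199 genes had 0 matches and 4.26% of them were lower. With 1 match the share was 9.64% of 1431 genes, with 2 matches 15.3% of 248, and with 3 or more 21.9% of 73. The medians of these classes were 0.00, -0.07, -0.15 and -0.19. The share of higher genes did not grow with the matches, at 2.35%, 2.17%, 2.42% and 0 of 73.

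For siLINC00622_2 the shares of lower genes were 4.70% of 10549, 8.76% of 1198, 12.7% of 173 and, with 3 or more matches, 9.68% of 31. The medians were -0.00, -0.07, -0.10 and -0.08. Higher genes made up 2.47%, 1.25%, 0.578% and 0 of 31. Both siRNAs thus had more lower genes among genes with matches, and the steps with the number of matches were regular for the first only. Genes with no match of either siRNA, 9167 in number, were lower in 3.74% and higher in 2.47%.

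The split by 3′ UTR length was chosen after the values were seen. Longer 3′ UTRs hold more matches, with a median of 1192 bases for genes without and 3197.5 bases for genes with a match of siLINC00622_1. The shares were therefore also read within 4 equal classes of 3′ UTR length. In the shortest class, 17.5% of 63 genes with a match of siLINC00622_1 and 3.11% of 2926 without were lower. In the longest class these shares were 11.1% of 987 and 5.55% of 2000. For siLINC00622_2 they were 18% of 50 and 3.16% of 2939 in the shortest, and 8.88% of 845 and 6.82% of 2142 in the longest. In each class and for each siRNA the share was larger with a match, least so for siLINC00622_2 in the longest class.

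**Figure D4:**
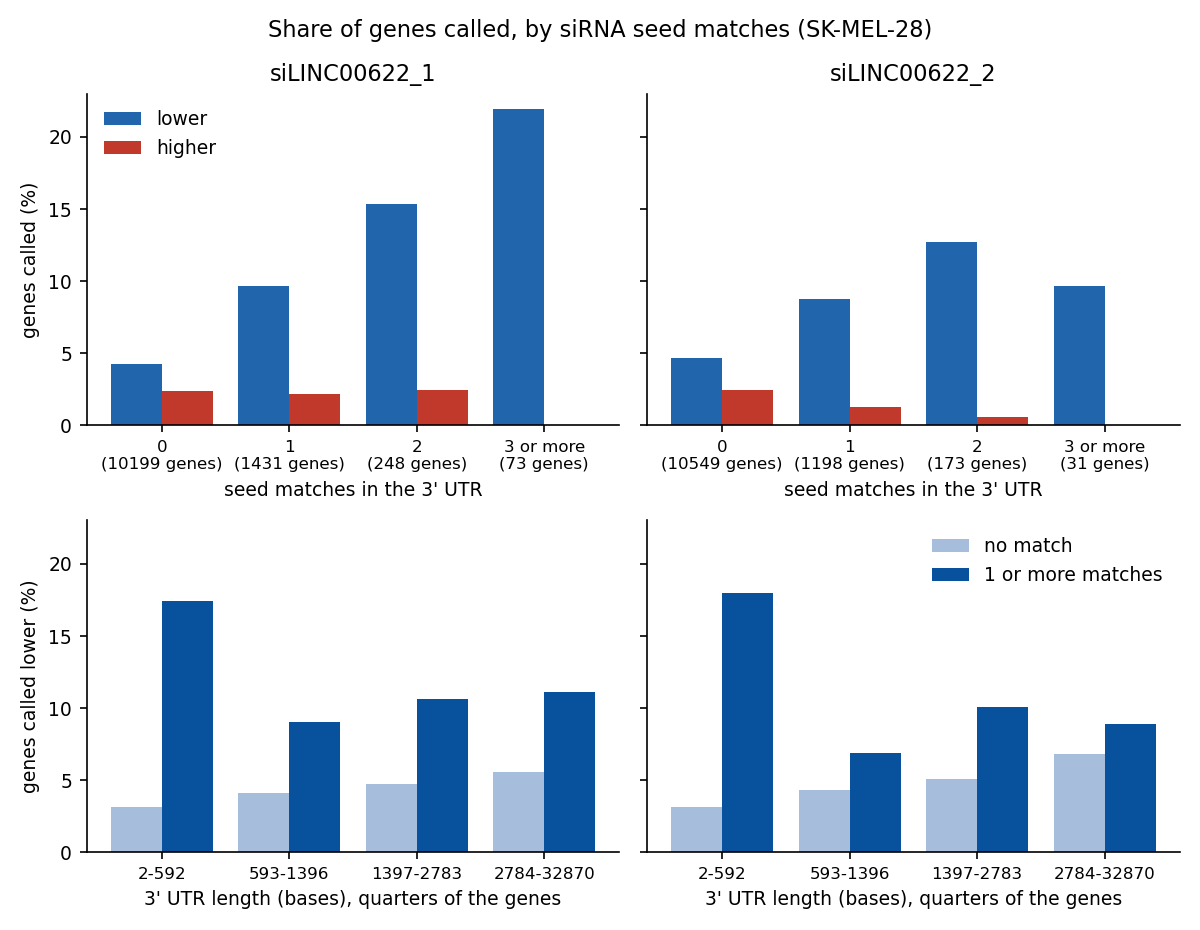
Upper panels show the share of genes called lower (blue) and higher (red), in percent, by the number of seed matches in the 3′ UTR for each siRNA. Lower panels show the share called lower within the 4 classes of 3′ UTR length, without (light) and with (dark) a match. For siLINC00622_1 the blue bars go from 4.26% to 21.9%.

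Seen from the genes, 283 of 626 lower genes with a 3′ UTR (45.2%) had a match of either siRNA, against 22.2% of genes in neither class and 18.4% of 277 higher genes. Among 168 genes lower by over 2-fold, 73 (43.5%) had a match, so the share was not larger for larger falls. These shares were not split by 3′ UTR length. Of the 15 leading falls 11 had a match, and of the 15 leading rises 0. RRAGD was among these 11, with 1 match of siLINC00622_1, and whether the match bears on its fall was not tested. The windows below are from lower genes named above, and are shown because they carry the 7 bases of the siRNA targets outside LINC00622. Each window has the length of the target and is aligned with it, the match is in capitals, and coordinates are of GRCh38.
GXYLT1, siLINC00622_1, chr12:42086938-42086956 (minus strand): ctgatggtaaaGTGAGAAc
MDM2, siLINC00622_1, chr12:68839925-68839943 (plus strand): catatatcaaaGTGAGAAa
KRR1, siLINC00622_1, chr12:75498372-75498390 (minus strand): aatattagaatGTGAGAAa
RNF138, siLINC00622_1, chr18:32130362-32130380 (plus strand): accgtgatataGTGAGAAa
CELF2, siLINC00622_1, chr10:11331812-11331830 (plus strand): aaacctctaagGTGAGAAa
CNN3, siLINC00622_1, chr1:94897689-94897707 (minus strand): gtttttattcaGTGAGAAc
NGFR, siLINC00622_2, chr17:49514360-49514378 (plus strand): ggcaagaaggaATTGACTt
DSG2, siLINC00622_2, chr18:31548142-31548160 (plus strand): aacctcaaataATTGACTt
TRUB1, siLINC00622_2, chr10:114977283-114977301 (plus strand): tatacttttaaATTGACTt
ZDHHC20, siLINC00622_2, chr13:21376456-21376474 (minus strand): atttgtgcagcATTGACTt
ITGAV, siLINC00622_2, chr2:186678819-186678837 (plus strand): tcccttaaataATTGACTa
The window of NGFR equals the target of siLINC00622_2 at 14 of 19 positions, and that of MDM2 equals the target of siLINC00622_1 at 13. Counted from the base opposite guide position 2, and leaving out the last base of the window, the GXYLT1 and MDM2 windows match without a break over 10 bases and those of DSG2 and ITGAV over 9. GXYLT1 has 4 matches of the first siRNA, CELF2 has 3 of the first and 1 of the second, and KCNJ10 has 3 of the first. Several falls had no match of either, among them DKK1, CCN1 and ANKRD1. In the dedifferentiated list 2 of the 10 lower genes had a match, beside 7 of all 23. Among YAP targets these were 2 of the 6 lower genes and 6 of all 24. Among integrins they were 4 of the 6 lower genes and 7 of all 16.

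Promoters of 10300 members, 250 bases before to 50 after the start in RefSeq (GRCh38.p14), were searched for 11 short words on both strands. The AP-1 word TGACTCA was in 6.64% of 241 higher (16 genes), 2.54% of 512 lower (13 genes) and 2.99% of all genes. The E-box CACGTG, bound by MITF, TFEB and MYC family factors, was in 14.9%, 6.64% and 10.3%. Its relative TCATGTG, the M-box of pigment genes, was in 3.73%, 0.781% and 1.74%, which for higher and lower genes is only 9 and 4 genes. The short form CATGTG, which overlaps the M-box, was in 10.8%, 7.42% and 6.75%. These words were more frequent among higher than among lower genes.

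The remaining words were as follows. The cAMP response element TGACGTCA was in 3.32% of higher, 2.93% of lower and 3.28% of all genes. The TEAD word GGAATG was in 8.30%, 10.2% and 10.8%, and its longer form ACATTCC in 1.66%, 2.34% and 2.14%. The TCF words CTTTGAT and TTTGAT were in 1.24% and 4.98% of higher and 1.56% and 5.86% of lower genes. The ATF words TGATGCAA and TGACGCAA were in 0.830% and 1.24% of higher and 1.17% and 0.391% of lower genes. A match is a string of letters and no measure of binding, and the words were chosen with the results known.

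Promoters of 3 genes that rose are shown because they carry these words, which are in capitals. GPR143 holds the M-box on the reverse strand 61 and 33 bases before the start, and SLC7A5 and TDG hold the E-box 130 and 80 bases before it.
GPR143: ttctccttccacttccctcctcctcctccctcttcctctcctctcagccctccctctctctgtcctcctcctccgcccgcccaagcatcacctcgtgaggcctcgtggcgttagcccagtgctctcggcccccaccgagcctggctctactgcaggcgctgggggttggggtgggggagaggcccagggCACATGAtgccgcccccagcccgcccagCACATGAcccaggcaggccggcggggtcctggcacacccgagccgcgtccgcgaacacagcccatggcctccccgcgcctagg
SLC7A5: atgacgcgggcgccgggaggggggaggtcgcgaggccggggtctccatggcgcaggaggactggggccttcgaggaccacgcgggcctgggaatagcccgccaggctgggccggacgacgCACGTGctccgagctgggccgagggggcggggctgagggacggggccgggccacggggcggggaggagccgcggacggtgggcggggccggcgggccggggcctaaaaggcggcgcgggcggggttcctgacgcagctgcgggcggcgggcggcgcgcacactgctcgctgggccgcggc
TDG: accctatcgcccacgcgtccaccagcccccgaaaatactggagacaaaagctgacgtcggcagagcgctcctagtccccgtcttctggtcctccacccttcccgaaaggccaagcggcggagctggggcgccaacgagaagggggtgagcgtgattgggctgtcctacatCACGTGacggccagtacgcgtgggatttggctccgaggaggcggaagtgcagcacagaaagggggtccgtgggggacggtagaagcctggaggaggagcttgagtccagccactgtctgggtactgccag
They lie at chrX:9765798-9766097 (minus strand), chr16:87869458-87869757 (minus strand) and chr12:103965622-103965921 (plus strand), in this order.

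The 2 lines share no library, so their calls were set side by side. Of 14721 genes used in both, A375 had 2.79% higher and 2.46% lower. Of 371 genes higher in SK-MEL-28, 64 (17.3%) were higher and 7 lower in A375, and these 64 were 15.6% of the genes higher in A375. Of 734 genes lower in SK-MEL-28, 124 (16.9%) were lower and 27 higher, and these 124 were 34.3% of the genes lower in A375. Most genes called in SK-MEL-28 were therefore not called in A375, and the shared part was larger than the share of all genes called there. The median A375 log2 ratio was 0.26 for the higher and -0.20 for the lower genes. Of 107 genes lower in both lines with a 3′ UTR, 48.6% had a seed match, and of 505 lower in SK-MEL-28 alone 44.8%.

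**Figure D5:**
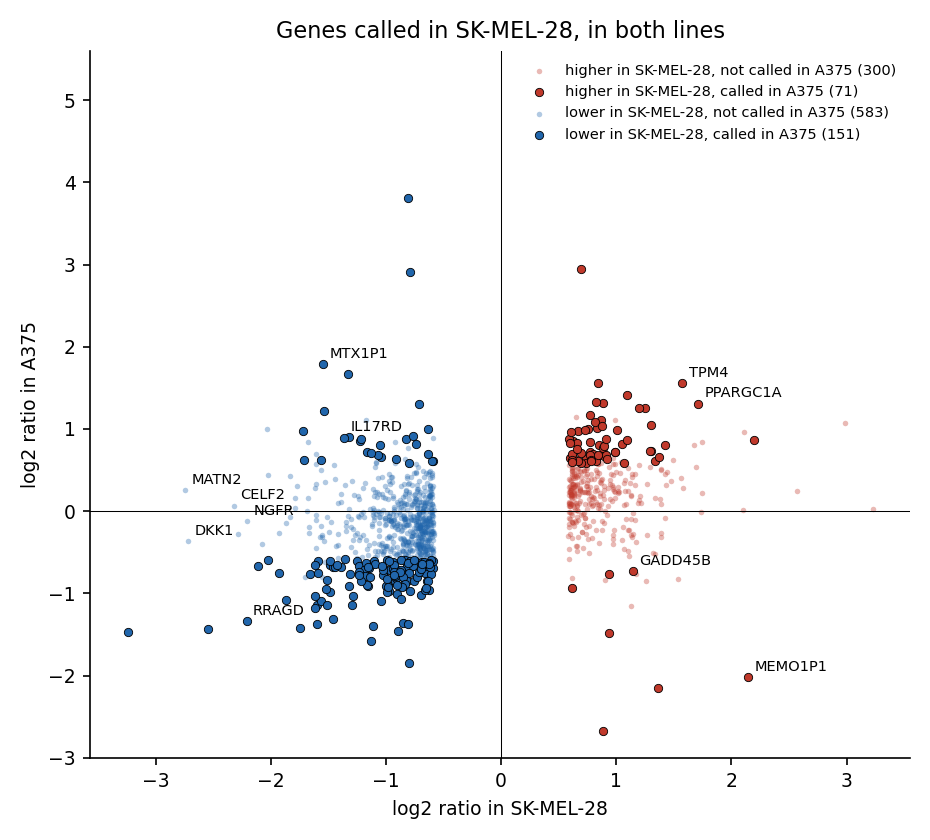
Log2 ratio in SK-MEL-28 against that in A375 for genes called in SK-MEL-28 and used in both lines. Outlined points were also called in A375, in either direction. Most pale points lie close to 0 on the A375 axis, and TPM4 is near 1.6 on both axes.

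Among the leading genes, TPM4 (7617 and 25915 counts in A375, 1.56) and PPARGC1A (31 and 92 counts, 1.31) rose in both lines. Between the 2 sits a level difference, since the siNC libraries held 609 counts of PPARGC1A in SK-MEL-28 and 31 in A375. ZDHHC20, KRR1, RRAGD, GXYLT1, TRUB1, RNF138, FBXO28, CYRIB and DSG2 fell in both, with A375 log2 ratios from -1.43 to -0.77. ANKRD1 also fell in both, with 492 and 357 counts in A375 (-0.67). DKK1 (7036 and 6338 counts in A375, -0.36), NGFR (-0.12) and CCN1 (0.17) were not called there despite higher counts than in SK-MEL-28. CELF2 had 9 and 11 counts in A375 (0.07, interval -1.33 to 1.53), and MATN2 had 12 and 17 (0.26, interval -0.86 to 1.49), so both were scarce there and neither was called. TRPM1 had 26 and 16 counts there (-0.83, interval -1.91 to 0.04). The difference between the lines was not tested for any gene.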

How the data were processed

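Poly(A)-enriched RNA was sequenced from SK-MEL-28 and A375 cells, 1 library per line and siRNA. The authors deposited 1 table with counts of reads per gene, together with FPKM values that they scaled for transcript length and depth. The CPM values, deposited as counts scaled to the library total, served to recover those totals (count over CPM). The submitters' processing notes name HISAT2, TopHat2, Bowtie2 and hg19 with no role, and the annotation is not given in the sources used here. The deposited TPM columns were not used. The totals so recovered in SK-MEL-28 were 33110470 and 34164676.

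Genes with 10 or more counts in 1 of the 2 libraries were kept. Log2 ratios used TMM sizes from edgeR 4.0.16 (R 4.3.3), with 2 added as the prior count. Exact binomial (Clopper-Pearson) 95% intervals describe sampling of reads and no biological spread, and no p-value was computed. The named genes were the 15 largest rises and falls by the interval end nearer to 0, up to 4 members per list and direction past the rule with 50 or more counts, key members, near-identical copies, and the 5 largest non-coding changes per direction. Members and lists were chosen with earlier results of these data known. The calculation was tested on simulated data. Seed matches were read from 3′ UTRs of GENCODE 29 (GRCh38), and promoters from RefSeq. The alternatives were other scalings (DESeq2 1.42.0 size factors among them), prior counts, filters, call rules and sums over near-identical copies. A few list members are not reported here by name, and the counts of their lists include them.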

Additional observations from a re-analysis of the deposited data

Results flagged for a closer look

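In 8 named genes the counts passed the rule in one direction in SK-MEL-28 and in the other in A375, with 1 library per condition in each line. Over all genes used in both lines, opposite calls were made by 7 of the 371 genes higher in SK-MEL-28 and 27 of the 734 lower ones. The difference between the lines was not tested for any of them. Lower in SK-MEL-28 and higher in A375 were KCNJ2 (-1.71 and 0.62 on the log2 scale), LRRC15 (-1.56 and 0.62), IL17RD (-1.36 and 0.89), VCAN (-1.04 and 0.66) and PCDH7 (-0.64 and 0.70). GADD45B was higher in SK-MEL-28 (1.14) and lower in A375 (-0.73). The pseudogenes MTX1P1 (-1.54 and 1.79) and MEMO1P1 (2.15 and -2.02) also went opposite ways. Reads of both pseudogenes can be shared with their parents, and the sums with the parents also lay on opposite sides of 0. For MEMO1 the summed log2 ratios were 1.39 (SK-MEL-28) against -0.66 (A375), and for MTX1 they were -0.53 against 0.60.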

How the results depend on the processing

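Within SK-MEL-28 no paired analysis was possible, because each condition has 1 library there. A fit over both lines with the line as a block was not made. The 458 higher genes became 200 with FPKM plus 1, 704 by fold alone, 152 where the whole interval had to pass 1.5-fold and 140 over 2-fold, and 356 to 476 under the other settings. The 768 lower genes became 294 with FPKM plus 1, 290 with the whole interval and 228 over 2-fold, and 636 to 1002 otherwise. Of the genes shared with A375, the 64 higher became 6 and the 124 lower became 17 over 2-fold. The median difference between genes with and without a seed match was -0.086 for siLINC00622_1 and -0.070 for siLINC00622_2 in 3′ UTRs, against -0.045 and -0.013 in coding sequence. The cause of these shifts was not tested. Summed over near-identical copies, SSX2 turned to 1.041, IKBKGP1 to 0.203 and SLC4A1APP1 to 0.092, and 5 more named genes lost their call, with MTX1P1 and SNRPGP10 among them. Of 1318 values for 215 named genes, these sums included, 1268 kept direction and call, and SGSH lost its call with library totals. With FPKM plus 1, 37 named genes lost their call. Counts under 50 limit 102 higher and 132 lower calls.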
